A study of Rattus norvegicus with 8 samples.

Results

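The cortical layer and retrohippocampal marker genes are 39 genes taken by name as markers of neocortical layers, of the subplate, of retrohippocampal cortex and of cortical regions. Probes were found by gene name in the scanner files. 35 genes matched by their own name and 2 under an older name (Lamp5 as RGD1306991 and Lmo3 as RGD1561357), and Cux2 and Hs3st4 had no matching probe. Of the 37 genes with a probe, 36 passed the filter on dim probes and were tested among 18803 features. Foxp2, a deep-layer transcription factor gene, was not well above background on any of the 8 arrays and was not tested. Ctgf is now named Ccn2.

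The samples were hippocampi of 4 male Sprague Dawley rats given yohimbine and imipramine for 7 days (Y+I) and of 4 given vehicle, all 3 months old, with expression measured 2 hours after treatment per the labels. Yohimbine is an antagonist of alpha-2 adrenoceptors. Imipramine, an antidepressant of the tricyclic class, blocks monoamine reuptake. Each animal had 1 array with 1 colour, and each array held 58717 spots other than controls. Doses, route and dissection are not given in the sources used here.

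The neocortex is built in layers of excitatory neurons. Deep-layer neurons project below the cortex, upper-layer neurons mostly connect cortical areas with each other, and the subplate lies under the deepest layer. The hippocampus adjoins the subiculum and the entorhinal cortex, which together are called retrohippocampal, and overlying neocortex lies close to it. Many layer markers, largely described in mouse, are also used by hippocampal neurons or interneurons. A change in one of these genes therefore cannot be assigned to neocortex by its name alone. In whole tissue, fewer cells of a type and less RNA per cell cannot be told apart.

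Array quality differed between the groups. Between 64.4% and 74.8% of spots were well above background on the Y+I arrays, against 76.4% to 79.7% on the vehicle arrays, and Y+I animals 2 and 3 had the lowest shares. All 8 arrays were on 1 slide and 1 scan, and each group filled its own row of the slide, so that an effect of the row and one of the treatment cannot be told apart. Of the tested markers, 7 were well above background on every vehicle array but not on every Y+I array, namely Tbr1, Tle4, Rprm, Syt6, Sema3e, Rorb and Ndst4.

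Of the 36 tested markers, 5 fell and none rose in Y+I hippocampi by limma at an adjusted p under 0.05. These were Rprm, Cplx3, Hs3st2, Nnat and Nr2f2, and they make up 13.9% of the tested markers. Over all features, 2.33% were called, 1.60% lower and 0.739% higher. The markers were not alike: 25 had a log2 fold change below 0 and 11 above 0, with a median of -0.18 against -0.02 over all features. At an unadjusted p under 0.05, 11 markers were lower, against 9.16% of all features, and 3 were higher, against 6.46%. The animals of the 2 groups did not overlap for 10 markers, 8 of them lower in Y+I (22.2% of the tested markers, against 6.65% of all features) and 2 of them higher (Sema3e and Mdga1, against 5.04% of all features). Among the 29 markers well above background on all 8 arrays, 4 fell when only such features were tested, where 1.39% of features were called lower. Fold changes below are log2 of Y+I over vehicle, levels are log2 relative to the 75th percentile of the same array, and errors are standard errors unless given as SD.

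**Figure D1:**
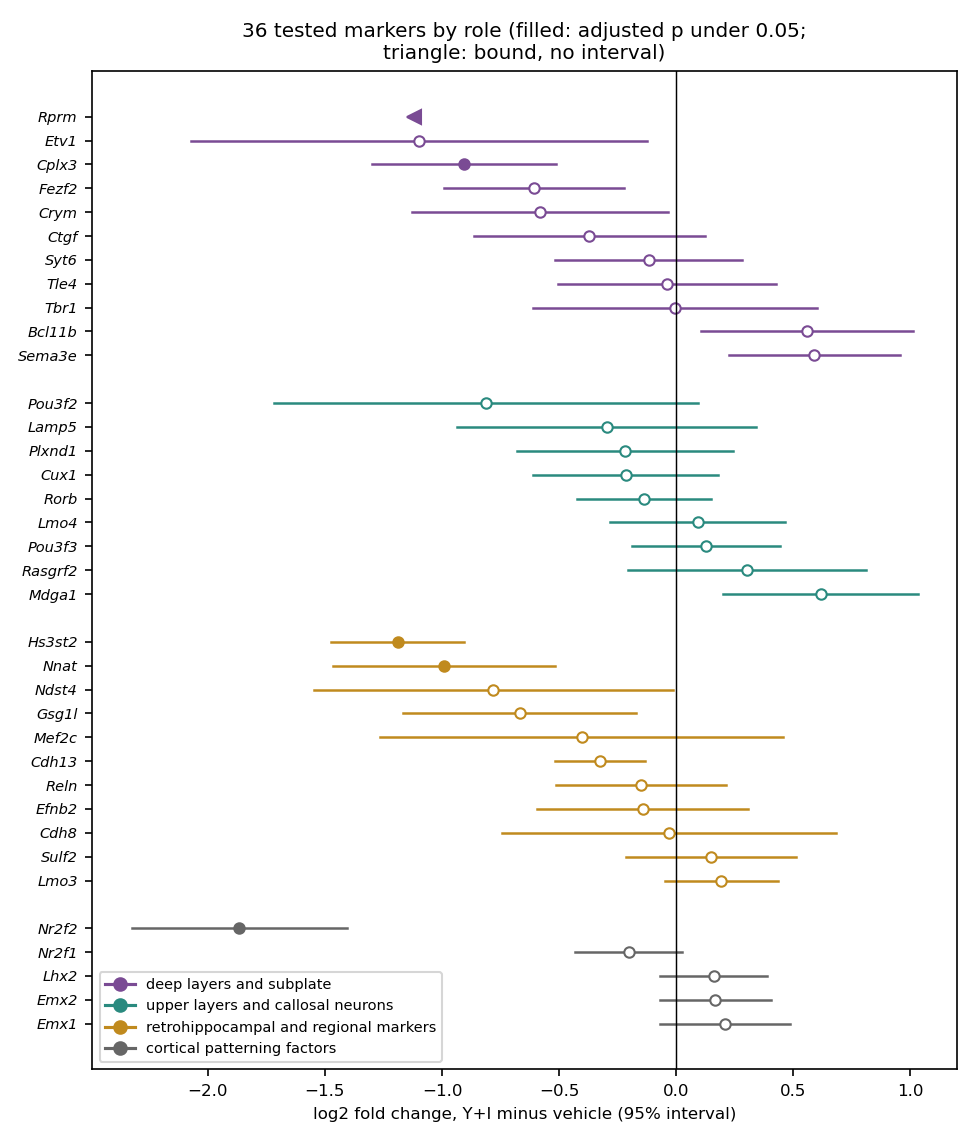
Log2 fold change of Y+I over vehicle for the 36 tested markers by role, with 95% confidence intervals and filled points for an adjusted p under 0.05. Rprm is drawn as a triangle without an interval at its bound of at least 2.17-fold lower, and Nr2f2, Hs3st2, Nnat and Cplx3 are the filled points, all below 0.

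Sequence from RefSeq (build GRCr8) was matched to 25 of the 37 markers with a probe, and 3 of the 5 called genes were among them. Their 250 bases upstream of the gene start are shown as the stretch next to the genes whose signal fell, 5′ to 3′ on the gene's strand, with capitals marking matches to the motifs searched. Each motif was searched on both strands in all 33469 promoters of this length. The E-box CAGATG occurs in 14% of them. The nuclear receptor half-site AGGTCA occurs in 14.1%. A further E-box, CAGCTG, occurs in 12% and reads the same on both strands.
Rprm (chr3:58950036-58950285, minus strand): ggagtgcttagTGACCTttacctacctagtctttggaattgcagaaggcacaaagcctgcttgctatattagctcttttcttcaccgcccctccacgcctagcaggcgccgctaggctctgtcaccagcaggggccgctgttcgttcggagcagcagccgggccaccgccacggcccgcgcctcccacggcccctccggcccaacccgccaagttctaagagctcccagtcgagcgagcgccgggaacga
Hs3st2 (chr1:185387213-185387462, plus strand): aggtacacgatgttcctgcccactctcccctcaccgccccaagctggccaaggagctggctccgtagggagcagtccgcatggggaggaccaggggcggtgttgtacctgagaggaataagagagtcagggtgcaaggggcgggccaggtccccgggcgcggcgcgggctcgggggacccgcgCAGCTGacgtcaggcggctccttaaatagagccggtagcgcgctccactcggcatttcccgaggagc
Cplx3 (chr8:66906201-66906450, minus strand): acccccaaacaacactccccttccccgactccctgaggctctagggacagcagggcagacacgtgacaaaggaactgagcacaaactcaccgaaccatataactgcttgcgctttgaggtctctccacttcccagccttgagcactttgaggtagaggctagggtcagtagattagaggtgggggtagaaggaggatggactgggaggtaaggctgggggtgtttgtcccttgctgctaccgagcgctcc
The capitals mark 1 AGGTCA match on the reverse strand in Rprm and 1 CAGCTG in Hs3st2, and Cplx3 held none of the 3. These bases were 63.2% G or C in Rprm, 67.6% in Hs3st2 and 56.4% in Cplx3, with 20, 21 and 6 CpG sites. The 25 marker promoters had a median of 63.2% G or C and 20 CpG sites, against 51.2% and 5 over all promoters. A match describes letters in this window and is not a binding site.

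Among the 11 tested genes of the deep layers and subplate, Rprm and Cplx3 fell, none rose, and 9 had a log2 fold change below 0 (median -0.37). Rprm encodes reprimo, a protein known for p53-dependent cell cycle arrest, and in mouse cortex it marks layer 6. Rprm signal was -6.59, -7.66, -7.36 and -8.01 in Y+I animals 1 to 4, against -4.38, -4.41, -5.30 and -4.86 in vehicle animals 1 to 4. It was well above background on every vehicle array and on no Y+I array. The measured means were -7.40 ± 0.60 in Y+I and -4.74 ± 0.43 in vehicle (SD, n = 4 each). Because the Y+I signal is only a bound, the vehicle mean was set against the lowest signal well above background on each Y+I array. By that bound Rprm was at least 2.17-fold lower in Y+I hippocampi. Its limma adjusted p of 0.00706 comes from the measured Y+I values below background, and the bound itself was not tested. Rprm passed the filter only through the vehicle group. With normexp background correction the change was -0.51 and did not pass (limma adjusted p = 0.0769). Its probe lies at chr3:35591040-35591099 of rat build rn4, as the file gives it.

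Cplx3, complexin 3, is a regulator of vesicle fusion that marks subplate neurons in mouse. Its signal was -3.56, -3.94, -4.22 and -3.58 in Y+I animals 1 to 4, against -3.05, -2.67, -2.84 and -3.11 in vehicle animals. Every Y+I animal was below every vehicle animal. The means were -3.82 ± 0.32 in Y+I and -2.92 ± 0.20 in vehicle (SD, n = 4 each), a log2 fold change of -0.91 ± 0.17, or 1.87-fold lower (limma adjusted p = 0.0351). Its probe lies at chr8:61356583-61356642. The Cplx3 call held in 3 of the 8 fits that left out 1 array, and was lost without Y+I animal 2 or any 1 vehicle animal, with adjusted p of 0.0750 to 0.0985. It was also lost with normexp background correction, which gave -0.48 (limma adjusted p = 0.0801), and with array weights (limma adjusted p = 0.0510).

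**Figure D2:**
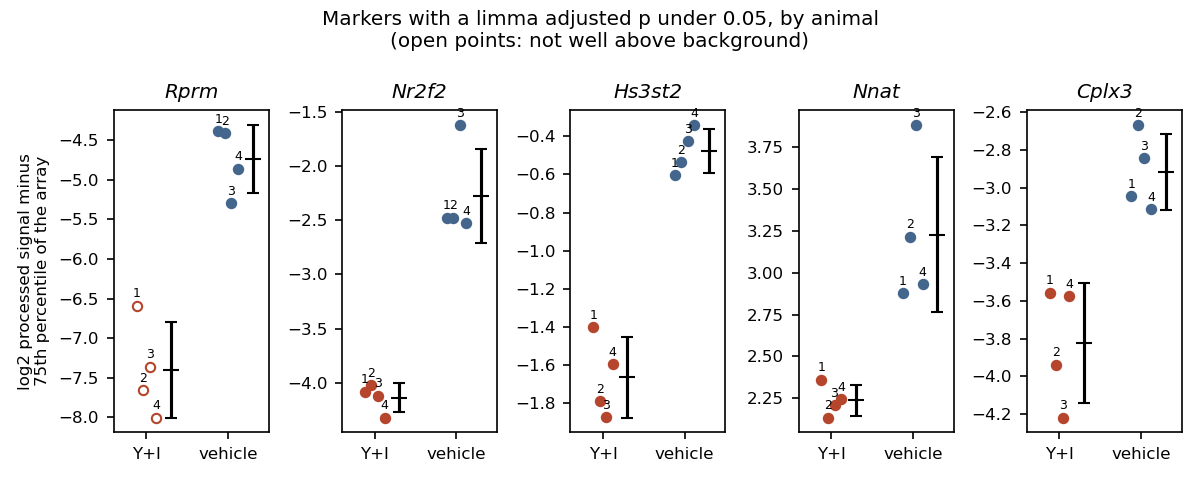
Log2 signal relative to the array's 75th percentile for the 5 called markers, 1 numbered point per animal, Y+I left of vehicle, with mean ± SD beside the points. Each panel has its own axis. No Y+I animal reaches a vehicle animal in any of the 5 genes, and open points mark the Y+I signals of Rprm that are not well above background.

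The other deep-layer genes did not pass the test. Sema3e, a secreted guidance cue, was higher at 0.59 ± 0.16 (limma adjusted p = 0.112) and its groups did not overlap. It was well above background on 3 Y+I arrays and passed the filter only through the vehicle group. Its Y+I signals of -5.41 to -5.26 lay near the lowest signal well above background in Y+I animals 2 and 3 (-5.38 and -5.09). On the vehicle arrays that lowest signal was -7.41 to -6.88. Sema3e passed with normexp background correction (0.51, limma adjusted p = 0.0348), a setting that called 400 features higher and 202 lower. Fezf2, which specifies neurons projecting below the cortex, was at -0.61 ± 0.17 (limma adjusted p = 0.117). Bcl11b (Ctip2), another factor of such neurons that is also made in the hippocampus, was at 0.56 ± 0.20 (limma adjusted p = 0.209), and passed the test when Y+I animal 3 was left out (0.75, limma adjusted p = 0.0444). Etv1, a layer 5 transcription factor gene, was -1.91, -3.95, -1.77 and -2.96 in Y+I animals 1 to 4, against -1.62, -1.37, -1.67 and -1.54 in vehicle animals. Its Y+I animals all lay below the vehicle animals but spread widely, and its change of -1.10 ± 0.43 had an adjusted p of 0.256 by limma. Crym (-0.58), a thyroid hormone binding protein gene, Ctgf (-0.37), a secreted matrix protein gene, Syt6 (-0.12), Tle4 (-0.04) and Tbr1 (-0.0044) completed the group. Tbr1, the layer 6 factor, and Syt6, a synaptotagmin gene, were each well above background on 1 Y+I array.

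None of the 9 tested upper-layer and callosal genes passed the test, and 5 were below 0 (median -0.14). Mdga1, an adhesion molecule gene, was higher in every Y+I animal. It stood at -3.69, -3.86, -3.77 and -3.76 in Y+I animals 1 to 4, against -4.98, -4.22, -4.17 and -4.17 in vehicle animals (0.62 ± 0.18, limma adjusted p = 0.138). It passed with normexp (0.52, limma adjusted p = 0.0366). Pou3f2 (Brn2), a factor of upper-layer neurons, was at -0.81 ± 0.40 (limma adjusted p = 0.376), and its close relative Pou3f3 (Brn1) at 0.13. Rasgrf2, an exchange factor for Ras, was at 0.30 ± 0.22 (limma adjusted p = 0.573). Cux1, a homeobox gene of layers 2 to 4, was at -0.22 ± 0.17 (limma adjusted p = 0.609). Lamp5, Plxnd1, Rorb and Lmo4 lay between -0.30 and 0.09.

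Hs3st2 and Nnat fell among the 11 retrohippocampal and regional genes, none rose, and 9 were below 0 (median -0.33). Hs3st2, a heparan sulfate 3-O-sulfotransferase, had a signal of -1.40, -1.79, -1.88 and -1.60 in Y+I animals 1 to 4, against -0.60, -0.54, -0.43 and -0.34 in vehicle animals. The groups were far apart compared with the spread within either. Means were -1.67 ± 0.21 in Y+I and -0.48 ± 0.12 in vehicle (SD, n = 4 each), a log2 fold change of -1.19 ± 0.13, or 2.28-fold lower (limma adjusted p = 0.00568). The probe lies at chr1:180324491-180324550 of rn4.

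Nnat, neuronatin, is an imprinted gene for a small membrane proteolipid. It was at 2.36, 2.13, 2.21 and 2.25 in Y+I animals 1 to 4, against 2.88, 3.22, 3.88 and 2.93 in vehicle animals. The Y+I animals lay close together and the vehicle animals were more spread. Means were 2.24 ± 0.09 in Y+I and 3.23 ± 0.46 in vehicle (SD, n = 4 each), giving -0.99 ± 0.21, or 1.99-fold lower, with a limma adjusted p of 0.048, just inside the threshold. In the fit over probes this probe had a limma adjusted p of 0.0509, and a second Nnat probe gave -0.77 ± 0.29 (limma adjusted p = 0.242). The call was kept in 1 of the 8 fits that left out 1 array, the one without vehicle animal 3. Its limma adjusted p was up to 0.12 in the others, and 0.0981 with array weights, and the probe lies at chr3:148271610-148271669.

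The next retrohippocampal genes by p did not pass the test. Cdh13, an adhesion molecule anchored in the membrane by lipid, was at 2.18, 2.25, 2.23 and 2.30 in Y+I animals 1 to 4, against 2.53, 2.54, 2.67 and 2.51 in vehicle animals (-0.33 ± 0.08, limma adjusted p = 0.0994). Cdh13 passed when the prior variance was given an intensity trend (limma adjusted p = 0.0453). A second Cdh13 probe gave -0.39 ± 0.13 (limma adjusted p = 0.203 over probes). Gsg1l, an AMPA receptor auxiliary subunit, was lower in every Y+I animal than in any vehicle animal (-0.67 ± 0.22, limma adjusted p = 0.172). Ndst4, a heparan sulfate deacetylase and sulfotransferase gene, was at -0.78 ± 0.34 (limma adjusted p = 0.308). Lmo3, a LIM-only cofactor, was at 0.19 ± 0.11 (limma adjusted p = 0.430). The remaining 5, Sulf2, Reln, Cdh8, Mef2c and Efnb2, lay between -0.40 and 0.15.

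Nr2f2 fell among the 5 patterning factors, which set up cortical regions in development, and the other 4 did not pass the test (median 0.16). Nr2f2 (COUP-TFII) is an orphan nuclear receptor that also marks some interneurons and mesenchymal cells. It was at -4.08, -4.02, -4.12 and -4.33 in Y+I animals 1 to 4, against -2.48, -2.47, -1.62 and -2.53 in vehicle animals. Vehicle animal 3 stood above the other vehicle animals, and every Y+I animal was far below all of them. Means were -4.14 ± 0.13 in Y+I and -2.27 ± 0.44 in vehicle (SD, n = 4 each), giving -1.86 ± 0.20, or 3.64-fold lower (limma adjusted p = 0.0058). With normexp background correction it was at -1.20 (limma adjusted p = 0.00399). The probe lies at chr1:125280995-125281054. Its close relative Nr2f1 (COUP-TFI) was at -0.20 ± 0.10 (limma adjusted p = 0.384), and Emx1, Emx2 and Lhx2 at 0.21, 0.17 and 0.16.

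Close relatives were set against each other as the change in one minus the change in the other, in an exact two-sided permutation test over the 8 animals, which cannot give a p below 0.0286. The change in Nr2f2 minus that in Nr2f1 was -1.66 (exact p = 0.0286, or 0.143 adjusted over 5 pairs). Pou3f2 minus Pou3f3 was -0.94 (exact p = 0.114, adjusted 0.286). The pairs Emx1 and Emx2, Lmo3 and Lmo4, and Cdh13 and Cdh8 had differences from -0.29 to 0.10 and exact p of at least 0.543. No pair passed after adjustment, and a single pair at the smallest p has an adjusted p of 0.143. Cux2 and Hs3st4 were not in these pairs, since no probe carries their names. The files describe probes under LOC688301 as Cux2 and under LOC687675 and LOC691700 as similar to Hs3st4, and these were not counted among the markers. In the fit over probes, the LOC688301 probe above background on all 8 arrays was at -0.0013 ± 0.22 (limma adjusted p = 0.999) and another at -0.24 ± 0.19, with 1 Y+I array above background. LOC687675 was at 0.62 ± 0.17 (limma adjusted p = 0.122) and LOC691700 at 0.12 ± 0.22 (limma adjusted p = 0.844).

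By animal, the mean deviation of the 36 markers from the vehicle mean was -0.25, -0.49, -0.27 and -0.29 in Y+I animals 1 to 4, against -0.03, 0.02, 0.01 and -0.0029 in vehicle animals 1 to 4. Deep-layer genes were at -0.32, -0.61, -0.55 and -0.43 in Y+I animals, against -0.16, 0.10, 0.05 and 0.01 in vehicle animals. That mean includes Tbr1, Tle4, Rprm, Syt6 and Sema3e, which passed the filter only through the vehicle group. Over the 6 deep-layer genes well above background on all 8 arrays the groups overlapped. Those means were -0.70 to -0.27 in Y+I animals, against -0.31 to 0.18 in vehicle animals. Retrohippocampal genes were at -0.36, -0.64, -0.29 and -0.29 in Y+I animals, against -0.02, -0.04, 0.07 and -0.01 in vehicle animals. Ndst4 in that mean passed the filter only through the vehicle group. Upper-layer genes overlapped between the groups, at 0.02, -0.31, 0.15 and -0.10 in Y+I animals, against 0.11, 0.06, -0.19 and 0.02 in vehicle animals. Y+I animal 2 had the lowest mean in the deep, upper and retrohippocampal groups, and patterning factors were lowest in Y+I animal 3.

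The called genes were then left out of these means. Without them, a split added after the values were seen, the other 9 deep-layer genes averaged -0.11, -0.31, -0.23 and -0.09 in Y+I animals, against -0.22, 0.05, 0.12 and 0.05 in vehicle animals, which overlap. The other 9 retrohippocampal genes averaged -0.24, -0.51, -0.09 and -0.12 in Y+I animals, against 0.03, -0.04, 0.01 and -0.00025 in vehicle animals. They include Ndst4, which passed the filter only through the vehicle group. Ndst4 was at -4.57, -5.96, -4.98 and -4.24 in Y+I animals 1 to 4, against -4.12, -3.88, -4.56 and -4.05 in vehicle animals. The 9-gene means without Ndst4 were not taken. The 4 patterning factors other than Nr2f2 averaged between -0.02 and 0.18 in Y+I animals, against -0.03 to 0.06 in vehicle animals. Counted gene by gene, Y+I animals 1 to 4 lay below every vehicle animal in 16, 18, 15 and 15 of the 36 markers. These are 44.4%, 50%, 41.7% and 41.7% of them, against 28.0%, 39.2%, 39.8% and 28.9% of all features. They lay above every vehicle animal in 5, 8, 8 and 8 markers, or 13.9% to 22.2%, against 23.9% to 37.3% of all features. Among the Y+I animals, animal 2 was the lowest in 15 markers (41.7%, against 32.8% of all features) and animal 3 in 11 (30.6%, against 33.8%).

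**Figure D3:**
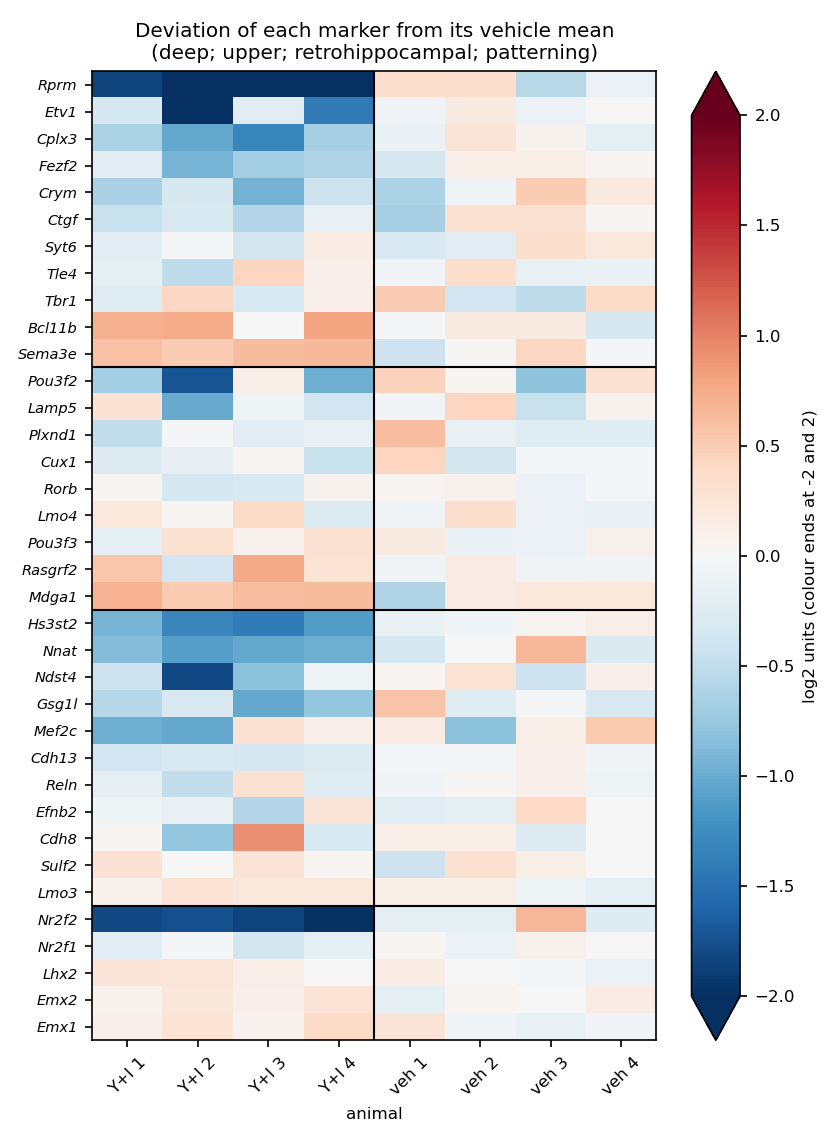
Heat map of the log2 deviation of each of the 36 markers from its vehicle mean, with a row per gene, a column per animal (Y+I left of vehicle) and black lines between the role groups; colours end at -2 and 2. Rprm and Nr2f2 are dark blue in all 4 Y+I animals, while Bcl11b, Sema3e and Mdga1 are red in most of them. The Rprm values in Y+I animals are below background.

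A further list of 20 cortical layer genes, none of them among the 39, had 18 with a probe and 14 tested. Of these 3 were called lower (21.4%, against 1.60% of all features) and none higher. The median was -0.45, and 12 were below 0, where 10175 of all 18803 features were below 0. The list was chosen with earlier results of these data known, so these counts only describe it. Nxph3, a neurexophilin that binds neurexins and marks deep layers, was at 0.52, -0.23, -0.58 and 0.62 in Y+I animals 1 to 4, against 3.06, 3.12, 2.80 and 2.61 in vehicle animals. That is -2.82 ± 0.27, or 7.05-fold lower (limma adjusted p = 0.0047). Tox, an HMG-box gene, was at -2.02 ± 0.34 (limma adjusted p = 0.0226), but only 2 of 4 Y+I arrays were well above background. Its change was -1.40 with the mean of its probes and -0.79 with normexp, so its size is uncertain. The Tox call was lost without Y+I animal 2 or vehicle animal 1, 2 or 4, with adjusted p of 0.0542 to 0.0790. Nxph4, a second neurexophilin, was well above background on no Y+I array, with measured means of -7.77 in Y+I and -5.84 in vehicle. Its call (limma adjusted p = 0.00541) rests on those Y+I values below background. As a bound it was at least 1.01-fold lower, so the size of its fall is not shown. With normexp its change was -0.18 (limma adjusted p = 0.458). Among the 9 genes of this list well above background on all 8 arrays, Nxph3 alone was called and the median was -0.17. The list's mean deviation was -0.69, -1.04, -0.94 and -0.67 in Y+I animals, against 0.14, -0.05, -0.11 and 0.01 in vehicle animals. It includes 5 genes that passed the filter only through the vehicle group, Nxph4, Ntsr1, Tox, Rspo1 and Zfpm2, whose Y+I values are partly below background. Over the 9 genes well above background on all 8 arrays it was -0.39, -0.57, -0.66 and -0.26 in Y+I animals, against 0.09, -0.03, -0.01 and -0.05 in vehicle animals. That mean still includes Nxph3 at -2.82.

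Markers of the sampled tissue and its neighbours were read beside these. All 12 hippocampal subfield markers were tested and none was called. Their median was 0.43, with mean deviations of 0.12 to 0.48 in Y+I animals, against -0.07 to 0.07 in vehicle animals. Of the 9 general neuron markers Camk2a alone rose (0.78 ± 0.15, limma adjusted p = 0.0366; median of the list 0.28). Of 8 tested thalamus and habenula markers Slc17a6 fell, with a list median of -0.37. Drd2 fell among 7 striatal markers (median -0.65), and Col1a1, Slc6a13 and Igfbp2 among 8 meningeal markers (median -0.60). None of the 3 tested choroid plexus markers was called (median -0.24). Some of these genes had Y+I signals below background, so the list means were also taken over genes well above background on all 8 arrays, a restriction added after the values were seen. On those, thalamic means were -0.68 to -0.53 in Y+I animals, against -0.10 to 0.23 in vehicle animals. Striatal means were -0.66 to -0.35 in Y+I animals, against -0.06 to 0.09 in vehicle animals. Meningeal means were -0.64 to -0.33 in Y+I animals, against -0.10 to 0.09 in vehicle animals. Subfield means were 0.30 to 0.59 in Y+I animals, against -0.11 to 0.08 in vehicle animals. Deep-layer means on the 6 such genes overlapped, at -0.70 to -0.27 in Y+I animals, against -0.31 to 0.18 in vehicle animals. The part of dissection or tissue makeup in the fall of Rprm, Cplx3, Hs3st2, Nnat and Nr2f2 was not tested.

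**Figure D4:**
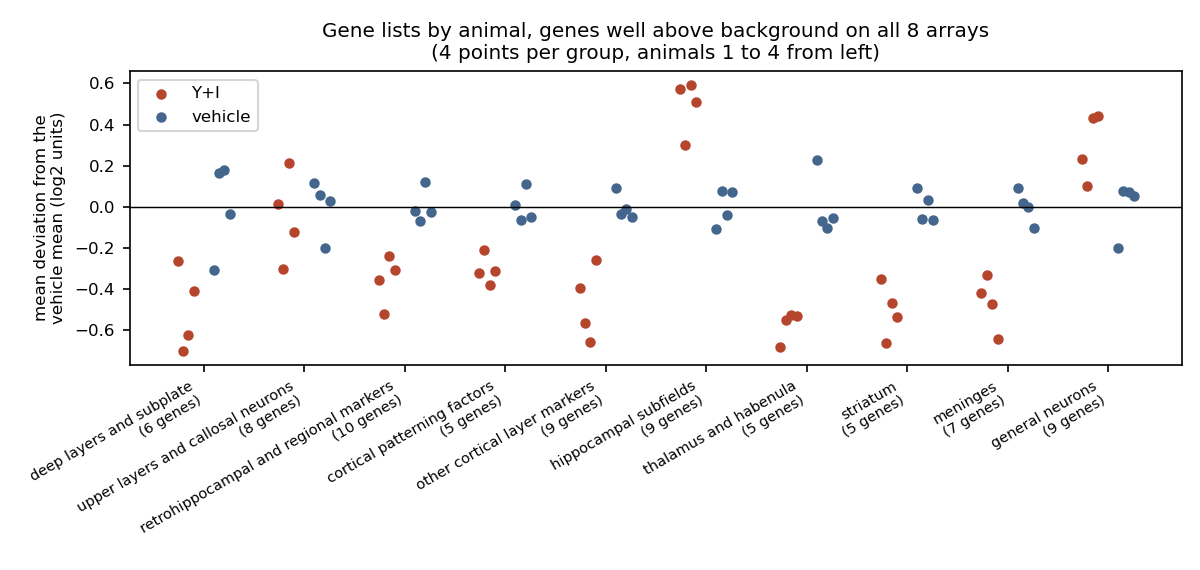
Mean log2 deviation from the vehicle mean in each animal over genes well above background on all 8 arrays, for the 4 role groups and 6 other lists, with Y+I animals left of vehicle animals. Deep-layer and upper-layer means overlap between the groups. Retrohippocampal, patterning, other cortical, thalamic, striatal and meningeal means are lower in every Y+I animal than in any vehicle animal, and subfield and general neuron means are higher. The retrohippocampal mean includes the called Hs3st2 at -1.19 and Nnat at -0.99, while the median change of those 10 genes was -0.24. The patterning mean includes Nr2f2. The other 4 factors averaged -0.02 to 0.18 in Y+I animals, against -0.03 to 0.06 in vehicle animals, which overlap. The other cortical mean includes Nxph3 at -2.82, while the median change of those 9 genes was -0.17.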

How the data were processed

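Total RNA of 8 hippocampi was labelled with Cy3 and hybridised to Agilent rat 8x60k arrays with 1 colour, per the labels. The authors deposited scanner files made with Agilent Feature Extraction 10.5.1.1, per the file headers, with a processed intensity for each spot, and a table of log2 values whose scale they do not state. That deposited log2 table correlated with the values used here with r of 0.9986 or more on each array, and was shifted by 0.59 to 0.67. It had array medians of -3.51 to -3.35 and 75th percentiles over probes of 0.0071 to 0.013. Each of its arrays was thus centred close to its own 75th percentile over probes, though the exact step is not stated.

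From the processed intensity, log2 was taken and each array's 75th percentile over spots other than controls was subtracted. Spots flagged as outliers were left out, spots of a probe were averaged, and a probe was kept where the 4 arrays of at least one group all had it well above background, with at least 3 values per group. The brightest kept probe stood for a gene. Of 30367 probes 21370 were kept, giving 18803 features. Symbols were updated through RefSeq tables (GRCr8), which hold no rn4 coordinates, and probe positions are as the files give them. limma 3.58.1 in R 4.3.3 fitted all features, Y+I minus vehicle, with Benjamini-Hochberg adjustment over all of them and a threshold of 0.05. The fit was also run on simulated independent normal values with the same spread in both groups. Such values lack the array differences between the groups, so the run lends the calls no weight.

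The genes, role groups and lists were chosen with earlier results of these data known. The genes named are every called marker, up to 4 further per role group with the smallest p, close relatives, and called genes of the other lists, and the remaining markers are given by value or range. The number of arrays limits the precision. Within a group, the labels tell the animals apart only by number. The limma p-values set the difference between the group means against the spread between samples within the groups.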

Additional observations from a re-analysis of the deposited data

Results flagged for a closer look

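In 6 of the 80 groups of 4 animals checked, 1 animal stood apart from the other 3 of its group by a gap above Dixon's 95% critical value, and chance alone gives about 1 in 20. Bcl11b was -0.28 in Y+I animal 3, against 0.44 to 0.52 in the other Y+I animals. Rasgrf2 was -3.37 in vehicle animal 2, against -3.61 to -3.58 in the other vehicle animals. Mdga1 was -4.98 in vehicle animal 1, where the others were at -4.22 to -4.17. Plxnd1 was -0.56 in the same animal, with the others at -1.41 to -1.32. Lmo4 was -0.34 in vehicle animal 2, and -0.81 to -0.75 in the others. Nr2f2 was -1.62 in vehicle animal 3, against -2.53 to -2.47 in the others, and its call held without that animal.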

How the results depend on the processing

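Rprm, Hs3st2 and Nr2f2 kept their call in each of the 8 fits that left out 1 array, with adjusted p of at most 0.0359, 0.0300 and 0.0233. The number of called markers was 5; it was 3 without Y+I animal 2 or vehicle animal 1, 2 or 4 (range 3 to 5 over the 8 fits), 3 with array weights, 3 with the replicate block for animal number and 2 without Y+I animals 2 and 3 together, where Hs3st2 and Nr2f2 remained. Array weights and the block each lost Cplx3 (adjusted p 0.0510 and 0.124) and Nnat (0.0981 and 0.116). Same-numbered animals did not deviate together over all features (r from -0.11 to 0.05). These correlations cannot show whether same-numbered animals were handled in pairs. With normexp background correction 3 fell (Hs3st2, Nr2f2, Nnat) and 2 rose (Sema3e at 0.51, adjusted p = 0.0348, and Mdga1 at 0.52, adjusted p = 0.0366), while Rprm (-0.51, adjusted p = 0.0769) and Cplx3 (-0.48, adjusted p = 0.0801) lost their call. That setting moved the median of all features to 0.09. With no filter on background 6 were called, the higher one being Foxp2, which was above background on no array. With an intensity trend in the prior variance 6 fell, the added one being Cdh13 (-0.33, adjusted p = 0.0453). Nnat was also lost with quantile normalization, the deposited table and the mean of probes (adjusted p 0.0509, 0.0517 and 0.109). Bcl11b passed without Y+I animal 3 (0.75, adjusted p = 0.0444). Of the other cortical genes 1 was called with probes well above background on all 8 arrays, and 2 to 3 when 1 array was left out. Nxph4 was at -0.18 with normexp (adjusted p = 0.458).

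Over all features 439 were called, against 602 with normexp (202 lower and 400 higher), 3887 with no filter (526 lower and 3361 higher), 144 with the replicate block, 164 without Y+I animals 2 and 3, and 121 to 355 with 1 array left out.

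The median of the markers was -0.066 with normexp and -0.26 to -0.14 with 1 array left out. The deep-layer median was -0.59 with probes above background on all arrays, -0.24 with no filter, and -0.59 to -0.27 with 1 array left out. The upper-layer median was 0.076 with normexp and -0.17 to -0.012 with 1 array left out. The retrohippocampal median was -0.24 on probes above background on all arrays, -0.086 with normexp and -0.35 to -0.20 with 1 array left out. The patterning median was 0.079 with array weights.

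Directions turned for markers that did not pass the test. With normexp these were Tbr1 (0.30), Tle4 (0.26), Syt6 (0.27), Rorb (0.18), Cdh8 (0.13) and Efnb2 (0.034). With quantile normalization they were Tbr1 (0.11) and Syt6 (0.0022), with median centring Tbr1 (0.013), and with the deposited table Tbr1 (0.013). With array weights they were Pou3f3 (-0.0055) and Cdh8 (0.080). Without Y+I animals 2 and 3 they were Rorb (0.059), Lmo4 (-0.028) and Efnb2 (0.084). With 1 array left out, Tbr1 ranged from -0.18 to 0.17, Tle4 from -0.20 to 0.12, Cdh8 from -0.35 to 0.22, Lmo4 from -0.0039 to 0.21 and Efnb2 from -0.27 to 0.0058. The cause of these shifts was not tested.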
